A study of Cricetulus griseus with 8 samples.

Results

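Calcium/calmodulin-dependent kinases (CaM kinases) were examined in LR73 phagocytes, fibroblasts of a Chinese hamster line, with and without apoptotic cells. A list of 9 genes was matched by symbol to the 26776 named genes of the deposited table, and 8 were found: Camk1, Camk1d, Camk1g, Camk2b, Camk2g, Camk4, Camkk1 and Camkk2. Camk2d was not analysed here. The group was picked because Camk1d was higher with apoptotic cells, so the differences of its members between the groups are given below as a description, with no p-value. RNA was sequenced from LR73 cells alone (4 libraries) and from LR73 cells in co-culture with apoptotic Jurkat cells (4 libraries), a human T cell line. Before co-culture the Jurkat cells had received UV-C light at 1500 mJ and spent 4 h in culture, and all cultures shared one medium with serum, per the labels. The line, the medium and the 4 replicates per group are what the labels and the design text state. They do not give the length of the co-culture or how the replicate cultures were separated, so the spread between libraries may be partly technical. The column names carry the prefix GFP, which the labels do not explain.

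When calcium rises in a cell it binds calmodulin, and calcium-loaded calmodulin opens the autoinhibited catalytic domain of these kinases. The CaMKI enzymes (Camk1, Camk1d, Camk1g) and CaMKIV (Camk4) become fully active once a CaM kinase kinase (Camkk1, Camkk2) phosphorylates their activation loop. CaMKII (Camk2b, Camk2d, Camk2g) instead assembles into multi-subunit rings whose subunits phosphorylate each other. CaMKIV is best known from neurons and T cells, CaMKI forms are found in many tissues, and Camkk2 is also an upstream kinase of the energy sensor AMPK.

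Between 22.7 and 29.7 M (mega) reads per library were assigned to named genes. Values are normalized counts, which are reads divided by 1 size factor per library. They are not per length, so levels are compared between libraries and not between genes. Alone library 1 stood apart from its group on the leading principal component of all tested genes, at -25.1 against -9.1 to -5.7 for the other libraries of cells alone and 9.8 to 13.6 for the co-cultures, so differences of members are also given without it. Of the fibroblast markers, Vim and Fn1 were abundant, while Col1a1 and Col1a2 had 0 to 4 reads per library and Thy1 had none.

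Camk1d, which encodes the delta form of CaMKI, had 110, 185, 138 and 178 normalized counts in libraries 1 to 4 of cells alone and 245, 260, 264 and 245 in libraries 1 to 4 of the co-cultures. Every co-culture library lay above every library of cells alone. The means were 153 ± 35.2 and 253 ± 9.97 normalized counts (SD, n = 4 per group), and their ratio was 1.66. On the log2(normalized count + 1) scale the difference was 0.75 (SE 0.14, 95% interval 0.44 to 1.07), the 49th largest increase among 13494 genes tested. Without alone library 1, the lowest of its group, it was 0.61 (SE 0.09, 95% interval 0.42 to 0.80). The authors' deposited table lists a log2 fold change of 0.485 for Camk1d, on a scale drawn towards 0.

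Camk1, the alpha form of CaMKI, differed in the opposite direction and by far less. It had 1799, 1657, 1780 and 1713 normalized counts in cells alone and 1571, 1571, 1540 and 1564 in the co-cultures. All co-culture libraries lay below all libraries of cells alone, with means of 1737 ± 65.0 and 1561 ± 14.9 (SD, n = 4 per group), a change of -10.1%. The log2 difference was -0.15 (SE 0.04, 95% interval -0.24 to -0.07), and -0.14 (SE 0.03) without alone library 1. Camk1g, the gamma form, had 0 reads in all 8 libraries, or 0 of 201.2 M reads, which allows up to 3 reads by counting error alone.

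**Figure D1:**
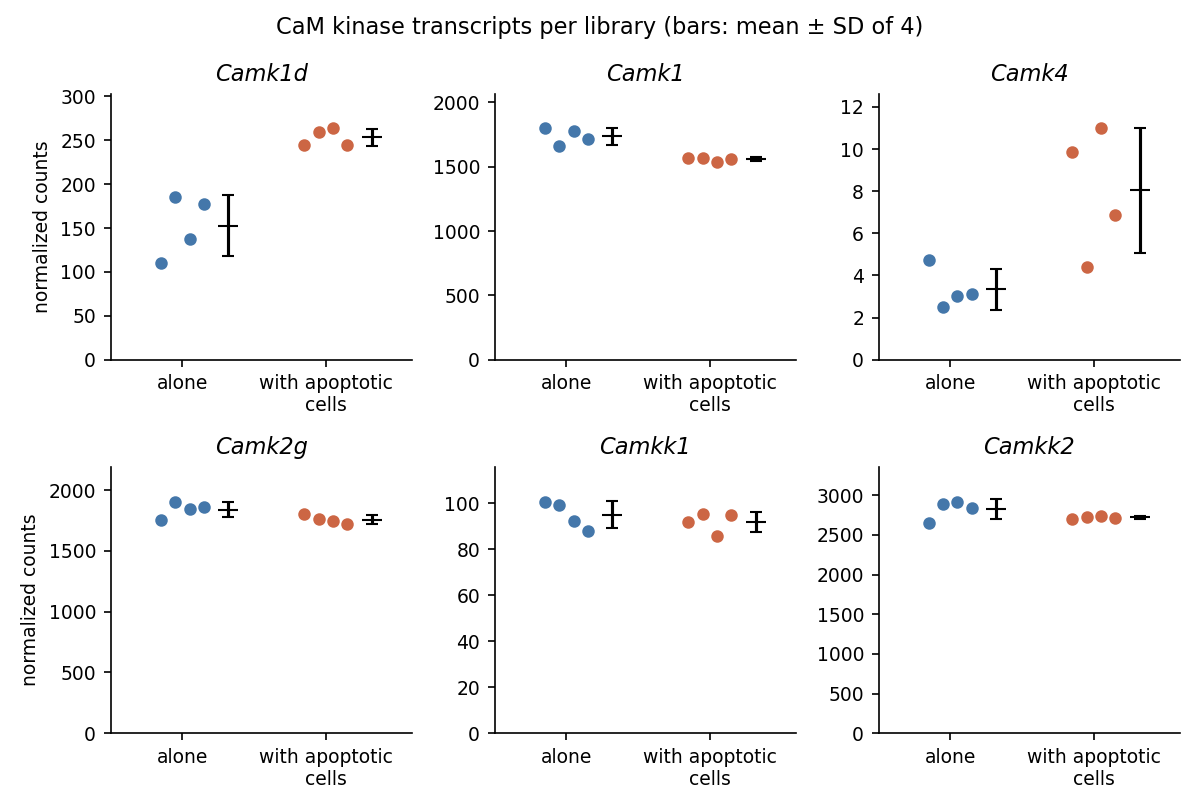
Normalized counts of 6 CaM kinase genes in each library (points, libraries 1 to 4 from left to right in each group), with the mean and SD of 4 libraries beside them; each vertical axis starts at 0. Camk1d lies between 110 and 185 in cells alone and between 245 and 264 with apoptotic cells, Camk1 is slightly lower with apoptotic cells, and the groups overlap for Camk4, Camk2g, Camkk1 and Camkk2.

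The balance of the CaMKI transcripts can be read within each library without any size factor. For every 100 Camk1 reads there were 6.12, 11.2, 7.75 and 10.4 Camk1d reads in cells alone, and 15.6, 16.5, 17.1 and 15.6 in the co-cultures. The means were 8.86 ± 2.34 and 16.2 ± 0.744 (SD, n = 4 per group). The groups could not overlap in this ratio, because every co-culture library was higher for Camk1d and lower for Camk1 than all cells alone. Without alone library 1 the mean of cells alone was 9.77 ± 1.79 (SD, n = 3). As transcript lengths were not used, the change in this ratio can be read but not which transcript was more abundant.

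Camk1d and Camk1 also ran in opposite order among the libraries of cells alone, whose Camk1d values also went into the choice of Camk1d. Camk1d was lowest in library 1, followed by 3, 4 and 2, and Camk1 was highest in library 1, followed by 3, 4 and 2. This is also the order of these libraries on the leading component. Camk2g followed the same order as Camk1d, so 3 of the 5 tested members ran in that order or its reverse, as did 24.7% of all tested genes. Over the 8 libraries Pearson's r between Camk1 and Camk1d was -0.98, and it was -0.91 after the mean of each group was subtracted. Without alone library 1 the second value was -0.91 as well, over 7 libraries. These values describe libraries that share 2 groups and a common leading component, whose part in the relation was not tested.

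**Figure D2:**
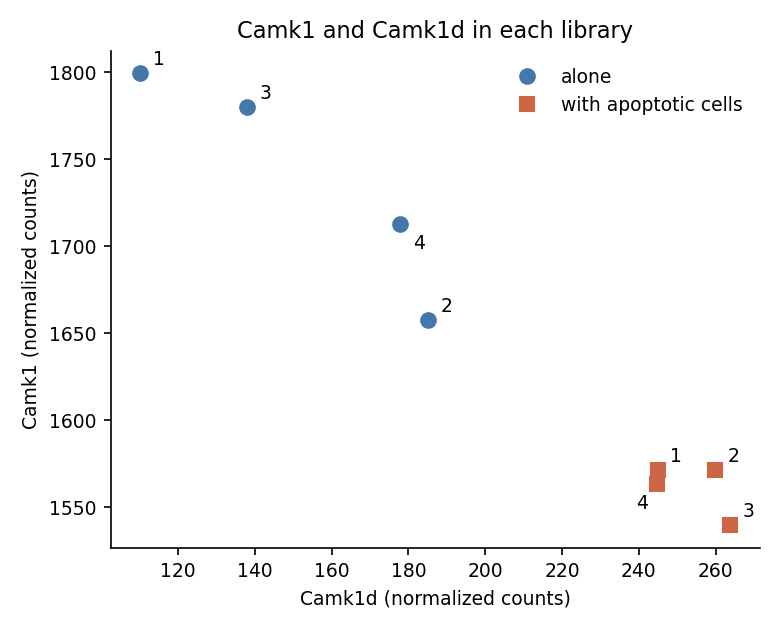
Camk1 against Camk1d, both in normalized counts, in the 4 libraries of cells alone (circles) and the 4 co-cultures (squares), with replicate numbers; the axes do not start at 0. Cells alone run from 110 Camk1d and 1799 Camk1 in library 1 to 185 and 1657 in library 2, while the co-cultures lie together between 245 and 264 Camk1d.

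Camk1d varied more among the libraries of cells alone than most genes of its level. Its coefficient of variation was 23.0% in cells alone, where 1330 genes within 1.5-fold of its mean had a median of 9.07%, and 97.1% of them lay below it. Leaving out alone library 1, its value was 15.2% against a median of 6.52%, and 97.0% of these genes still lay below it. In the co-cultures its coefficient was 3.94% against a median of 6.92%. Relative to counting error, chi-square per degree of freedom for Camk1d was 8.65 in cells alone and 0.377 in the co-cultures. The medians of the genes of its level were 1.75 and 0.952. Leaving out alone library 1, the value of Camk1d in cells alone was 3.95. All 5 tested members had a larger coefficient of variation in cells alone, as did 73.8% of tested genes. With alone library 1 left out, 4 of the 5 members did (Camk2g did not), and 48.7% of tested genes.

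Among CaMKII genes, Camk2g, the gamma subunit found in many tissues, had 1751, 1904, 1843 and 1860 normalized counts in cells alone and 1805, 1759, 1742 and 1718 in the co-cultures. The groups overlapped through alone library 1, the lowest of its group. The means were 1839 ± 64.4 and 1756 ± 36.9 (SD, n = 4 per group), which differed on the log2 scale by -0.07 (SE 0.04, 95% interval -0.15 to 0.02). Without alone library 1 the difference was -0.09 (SE 0.03). The groups then no longer overlapped, but the share of all genes that did so without that library was not determined. Camk2b, the beta subunit best known from brain, had 1, 1, 2 and 1 reads in cells alone and 0, 1, 0 and 7 in the co-cultures. Of its 8 reads in the co-cultures 7 were in library 4, and the ratio between the groups was 1.75 with an exact 95% counting interval of 0.504 to 6.79. Camk2a, the alpha subunit of neurons and no member of the list, had means of 1.80 and 1.53 normalized counts. Neither gene reached a mean of 10 normalized counts, the level required for the fit across genes.

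Camk4 was also below that level. It had 5, 3, 3 and 3 reads in cells alone and 10, 4, 10 and 7 in the co-cultures, or 4.75, 2.50, 3.04 and 3.10 against 9.88, 4.42, 11.0 and 6.85 normalized counts. Co-culture library 2 lay just below alone library 1, so the groups overlapped. With 14 and 31 reads in all, the ratio between the groups was 2.42 with an exact 95% counting interval of 1.25 to 4.92, which covers counting error only. Without alone library 1 the mean of cells alone was 2.88 normalized counts, from 9 reads. The groups then did not overlap, and the share of all genes that did so was not determined.

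Of 26 T cell markers in the deposited data 20 had reads. By group sums of raw reads, 12 were higher with apoptotic cells and 7 lower. The 17 markers with at most 5 reads in cells alone summed to 8 reads there and 48 with apoptotic cells. Of these, 10 rose and 0 fell, with sums of 0, 0, 5 and 3 per library against 15, 11, 8 and 14. In normalized counts, Tcf7 (677 against 663) and Gata3 (277 against 271) of the 7 differed little, while Cd4, Cd27, Cd28, Lat and Themis stayed lower. Lck, the T cell Src-family kinase, and Zap70, which acts downstream of it, had 0 reads in every library of cells alone and 9 and 5 in the co-cultures. The costimulatory receptor genes Cd28 and Cd27 went the other way, from 118 to 68 and from 83 to 52 reads. Cd3d, Cd3g, Cd2, Lcp2 and Ubash3a had 0 reads in all 8 libraries. The summed level of the whole list, most of it from Tcf7, Themis, Gata3 and Lat, was 1763 to 1926 normalized counts in cells alone and 1657 to 1719 in the co-cultures. The part of Jurkat RNA in the Camk4 reads was not tested. For Camk1d, with 646 reads in cells alone and 973 in the co-cultures, it was not tested either. In bulk RNA, a change in the share of cells and a change in RNA per cell cannot be told apart.

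The CaM kinase kinases differed little between the groups. Camkk2 had 2645, 2893, 2919 and 2840 normalized counts in cells alone and 2698, 2728, 2744 and 2711 in the co-cultures. The co-culture values all lay within the range of cells alone, whose lowest was library 1. The log2 difference was -0.05 (SE 0.04, 95% interval -0.14 to 0.03). Without alone library 1 it was -0.08 (SE 0.03). The groups then no longer overlapped, with the share of all genes that did so not determined. Camkk1 had 101, 99.2, 92.4 and 87.9 normalized counts in cells alone and 91.8, 95.1, 85.7 and 94.9 in the co-cultures. The groups overlapped, with a log2 difference of -0.05 (SE 0.09, 95% interval -0.24 to 0.14), an interval that includes a fold change from 0.848 to 1.10. The ratio of the kinase kinases was 3.37 ± 0.322 Camkk1 reads per 100 Camkk2 reads in cells alone and 3.38 ± 0.175 in the co-cultures (SD, n = 4 per group).

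Of the 5 members that entered the fit across all genes, limma called Camk1d higher and Camk1 lower at a Benjamini-Hochberg adjusted p under 0.05. Over all 13494 genes it called 6.36% higher and 5.31% lower, 11.7% in all, and since the members were picked on this contrast nothing is read from their count. By edgeR and by DESeq2 the called members were these 2 as well, with 11.6% of all genes called by edgeR (6.2% higher, 5.37% lower) and 11.9% by DESeq2 (6.58% higher, 5.34% lower). The groups did not overlap for the same 2 members, and for 21.2% of all tested genes, 11.4% higher and 9.72% lower. The median log2 difference of the 5 members was -0.05, beside 0.001 over all tested genes. Camk1 lost its call without alone library 3 or 4, without any 1 of the co-culture libraries, and with the replicate number as a block. Camk2g and Camkk2 were called lower too without alone library 1, in a fit that called 26.0% of all genes, 13.4% higher and 12.5% lower.

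**Figure D3:**
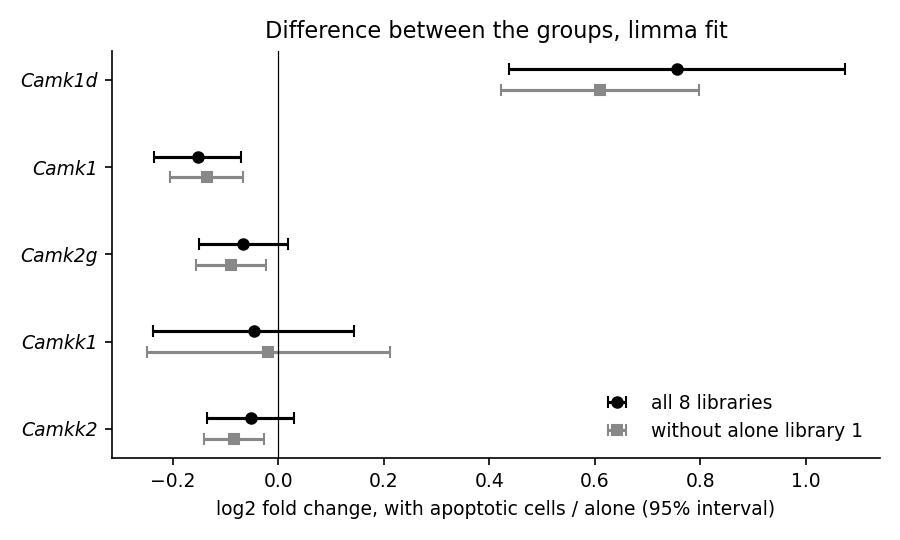
Log2 fold change of normalized counts + 1 between co-cultures and cells alone for the 5 tested members, with 95% intervals from limma, for all 8 libraries (circles) and without alone library 1 (squares). Camk1d stands at 0.75 and 0.61, and the other 4 lie between -0.15 and -0.02.

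The libraries that were high or low for Camk1d were high or low for many other genes. Of 8939 genes that averaged 100 normalized counts or more, the highest Pearson r with Camk1d over the 8 libraries belonged to Map4k4, a Ste20-family kinase, Fam206a, the chromatin remodeller Chd4, the zinc finger gene Znf319 and the spindle gene Aspm, all at 0.99. An r above 0.9 was seen for 524 genes and below -0.9 for 351, 9.79% in all, and Camk1 was among the 15 most negative. With group means subtracted, the highest were Taok3, Bcor, Nbeal1, Enah and Arhgap29, all at 0.99. On that measure 827 of the 8939 genes had an r above 0.9 and 441 below -0.9, Camk1 at -0.91 among the latter. Between the groups Taok3 differed by 0.05, Bcor by 0.09, Arhgap29 by 0.15, Nbeal1 by 0.31 and Enah by 0.34 on the log2 scale, all less than Camk1d. The r of deviations for these 5 was 0.96 to 0.98 when alone library 1 was left out. They were picked by this measure on the same libraries, so a high value was largely set by the choice. For the 5 genes from Map4k4 to Aspm it was 0.82 to 0.98.

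Genes that act around the CaM kinases were taken from 6 lists of 129 genes in all. Among the 125 that the deposited data contain, 94 were tested, of which 4 rose and 4 fell by limma, 8.51% against 11.7% of all genes. Their median log2 difference was 0.04, and 26 of them had an unadjusted p under 0.05, where 26.5% of all tested genes did (13.7% higher, 12.8% lower). Limma called 16 of the 94 higher and 14 lower with alone library 1 left out, in the fit that called 13.4% and 12.5% of all genes. No adjusted p below is over the lists alone.

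Calmodulin itself is encoded by several genes, of which Calm2 and Calm3 did not pass the limma threshold. Calm3 stood at 2186 ± 114 and 2215 ± 91.7 normalized counts (SD, n = 4 in each), and the log2 difference was 0.02 (SE 0.05, limma adjusted p = 0.817). Calm2 stood at 8513 ± 626 and 9177 ± 56.1 normalized counts, a log2 difference of 0.11 (SE 0.05, limma adjusted p = 0.161). Alone library 1 held 9367 normalized counts of Calm2 while the other libraries of its group held 7862 to 8420, all below the co-cultures. When that library was left out, limma called Calm2 higher (0.16, adjusted p = 5.08e-05). Over all alternatives its adjusted p ran from 5.08e-05 to 0.283. In this list of calmodulins and small regulators, 1 of 6 tested genes fell and 0 rose, 16.7% against 11.7% of all genes. The gene that fell was Pcp4l1, which encodes a small protein related to the calmodulin regulator Pcp4. It went from 320 ± 7.73 to 265 ± 15.2 normalized counts (log2 -0.27, SE 0.06, limma adjusted p = 0.0155). Leaving out co-culture library 1 or 3 ended that call (adjusted p up to 0.0562).

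Of 17 tested calmodulin-regulated and CaM kinase-related kinases, 1 was higher and 1 lower, 11.8% against 11.7% of all genes. Without alone library 1 there were 1 higher and 4 lower, in the fit that called 13.4% of all genes higher and 12.5% lower. Cask, a scaffold with a CaM kinase-like domain, had 1197, 1342, 1300 and 1356 normalized counts in cells alone and 1472, 1559, 1563 and 1537 in the co-cultures, without overlap. Its rise was 0.24 in log2 units (SE 0.05, limma adjusted p = 0.00922) and kept its call in each alternative (adjusted p = 0.000121 to 0.0383). Eef2k, the calmodulin-dependent kinase that inhibits translation elongation, went from 2160 ± 44.9 to 1946 ± 96.7 normalized counts (log2 -0.15, SE 0.04, limma adjusted p = 0.0404). With no filter, with the replicate block, or when alone library 2, 3 or 4 or a single co-culture was left out, it did not pass (adjusted p up to 0.124). Pnck, the beta form of CaMKI, had means of 0.259 and 0.521 normalized counts and was not tested.

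None of 11 tested genes of CaM kinase phosphatases and calcineurin, the calmodulin-activated phosphatase, passed the limma threshold. An unadjusted p under 0.05 was found for 2 of them, each higher, edgeR called 0 and DESeq2 called 1 higher, the calcineurin-responsive factor Nfatc3, named after its values were seen (log2 0.37, SE 0.13, limma adjusted p = 0.0957). Nor did any of 11 tested genes of AMPK and its partners pass by limma, with 3 higher at an unadjusted p under 0.05 and 0 calls by edgeR and by DESeq2. Prkaa1, a catalytic subunit of AMPK, stood at 1334 ± 53.7 and 1421 ± 45.6 normalized counts (log2 0.09, SE 0.04, limma adjusted p = 0.202). Among 16 transcription factors and cofactors that CaM kinases address, limma, edgeR and DESeq2 each called 0, and 4 had an unadjusted limma p under 0.05, 3 of them higher. Creb1, the cyclic AMP response factor that CaMKIV phosphorylates, stood at 1584 ± 129 and 1569 ± 20.5 normalized counts (log2 -0.009, SE 0.06, limma adjusted p = 0.929). When alone library 1 was left out, limma called 2 higher and 2 lower of the first of these lists, 2 higher of the second, and 3 higher and 2 lower of the third, beside 26.0% of all genes. The counts at an unadjusted p under 0.05 stand beside 26.5% of all genes at that level.

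**Figure D4:**
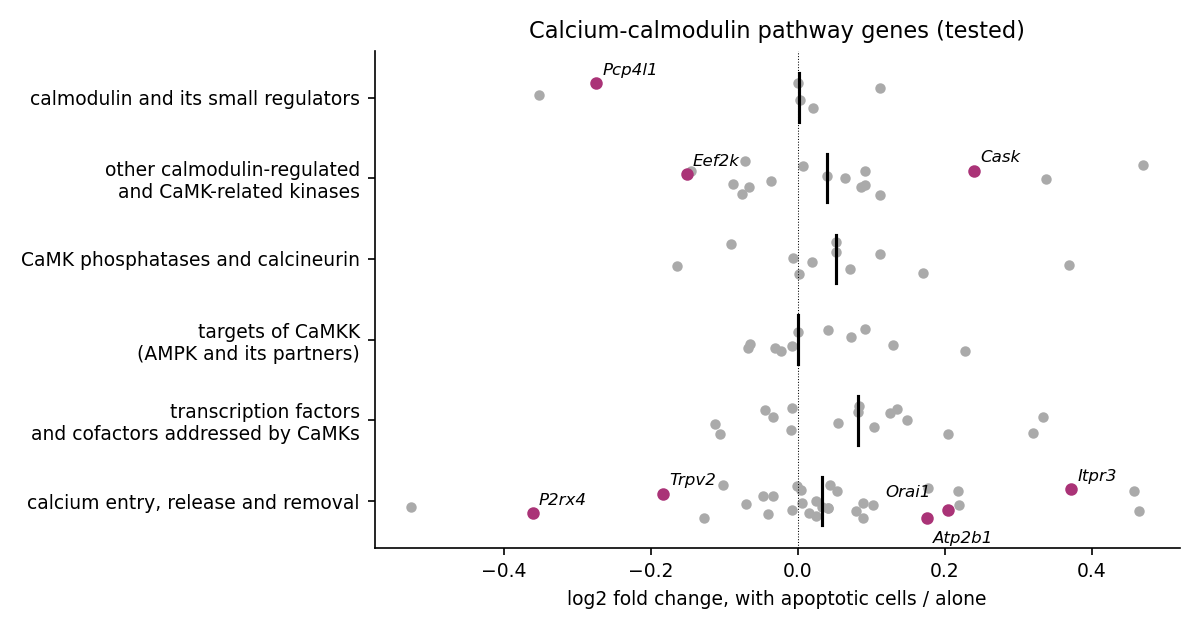
Log2 fold change of normalized counts + 1 between co-cultures and cells alone for the 94 tested genes of the 6 lists (points; dark named points passed an adjusted limma p under 0.05; black bars are list medians; vertical scatter within a list carries no value). The named points are 4 genes that rose and 4 that fell, and the list medians lie between -0.0005 and 0.08.

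The largest list, calcium entry, release and removal, had 3 of 33 tested genes higher and 2 lower, 15.2% against 11.7% of all genes. DESeq2 also called Cacna1c, a voltage-gated calcium channel subunit named after its values were seen, higher (limma log2 0.46, SE 0.13, limma adjusted p = 0.0515). Limma called 7 higher and 5 lower when alone library 1 was left out, in the fit that called 13.4% of all genes higher and 12.5% lower. Itpr3, an inositol trisphosphate receptor that releases calcium from the endoplasmic reticulum, had 1958, 2580, 2370 and 2535 normalized counts in cells alone and 2929, 3191, 3029 and 3008 in the co-cultures. The groups did not overlap, and its rise was 0.37 in log2 units (SE 0.08, limma adjusted p = 0.0122), and 0.28 without alone library 1. Orai1, the pore of store-operated calcium entry, went from 494 ± 33.4 to 568 ± 5.51 normalized counts (log2 0.20, SE 0.06, limma adjusted p = 0.0378). Its partner Stim1, the calcium sensor of the endoplasmic reticulum, stood at 864 ± 74.4 and 917 ± 49.8 normalized counts (log2 0.09, SE 0.07, limma adjusted p = 0.425). Atp2b1, a plasma membrane calcium pump, went from 3781 ± 243 to 4265 ± 136 normalized counts (log2 0.18, SE 0.05, limma adjusted p = 0.0402).

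The genes of that list that fell were cation channels of the plasma membrane and endosomes. P2rx4, an ATP-gated channel, had 269, 273, 286 and 308 normalized counts in cells alone and 208, 230, 215 and 229 in the co-cultures, without overlap (log2 -0.36, SE 0.07, limma adjusted p = 0.00736). Trpv2 went from 1335 ± 44.4 to 1174 ± 13.3 normalized counts (log2 -0.18, SE 0.04, limma adjusted p = 0.0121). Itpr3, P2rx4 and Trpv2 kept their limma calls in each alternative (adjusted p up to 0.0479). Orai1 and Atp2b1 lost theirs with no filter, with the replicate block, without alone library 3 or 4 and without any 1 co-culture library, and Orai1 also without alone library 2 (adjusted p up to 0.107 for Orai1 and 0.122 for Atp2b1).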

How the data were processed

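mRNA libraries of 8 cultures were analysed from 1 table with a column per library. The submitters' processing notes name FastQC, STAR, featureCounts and DESeq2 and give no versions. The build, annotation, strand setting and treatment of reads that match both species were not given in the sources used here, so reads of near-identical genes or of human RNA can be counted under a hamster gene. The deposited signal per library is gene counts divided by 1 size factor: 100% of values were whole multiples of 1 read within 0.01 reads. The authors also deposited a log2 fold change, p-values, and a standard error and test score for each gene, of which only the log2 fold change of Camk1d is quoted. Each column was tied to a sample by its replicate number and by the letters AC in co-culture names.

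The 13494 genes that averaged 10 normalized counts or more were fitted with limma-trend on log2(normalized count + 1), with group as the only term (R 4.3.3, limma 3.58.1). Differences on this scale understate changes of low genes. Since whole reads came back, edgeR 4.0.16 (quasi-likelihood, 1564 genes called) and DESeq2 1.42.0 (1592 genes) were run as alternatives, as were other pseudocounts, filters, scaling, array weights, a replicate block and each library left out. A row with a blank name, 0.14 to 0.176% of reads per library, was left out. Members and lists were chosen with earlier results of these data known. Named genes were the members, up to 6 called genes per pathway list, 10 fixed genes and the 5 genes most like Camk1d on each of 2 measures; Camk2n1, one of the fixed genes, was not analysed here, another fixed gene and a T cell marker are not reported here, and Ppp3ca, Mef2b and Mcub of the lists were not analysed here. Other marker lists were summed in normalized counts per library. The myeloid sum was 45.6 to 79.2 in cells alone and 50.4 to 70.3 in the co-cultures. The epithelial sum was 308 to 337 in cells alone and 264 to 297 in the co-cultures. The fibroblast sum, most of it from Vim, was 144937 to 148081 in cells alone and 166478 to 168564 in the co-cultures. Matching the RefSeq table of CriGri-PICRH-1.0 by LOC number or synonym added 0 members. Figures were drawn with matplotlib 3.10.9.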

Additional observations from a re-analysis of the deposited data

Results flagged for a closer look

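Among the 36 groups of 4 libraries examined for the named genes, 1 held a library far from the others. For Stim1, co-culture library 4 had 842 normalized counts while the other 3 co-cultures had 940 to 944, a gap of 0.959 of the whole range and past the 95% limit of Dixon's test for 4 values. Chance alone gives about 1 such group in 20. For Stim1 no alternative gave a limma call, with adjusted p from 0.216 to 0.673.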

How the results depend on the processing

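Camk1d, whose difference is a description since it was the reason for the choice of genes, differed by 0.61 to 0.86 on the log2 scale over 17 alternatives, the lowest without alone library 1. Camk1 kept its direction throughout (-0.18 to -0.14). The number of members called lower, 1 with all libraries, was 2 with array weights (Camkk2 was added), 0 with the replicate block, and 0 to 3 when 1 library was left out. Over all genes 858 were called higher and 716 lower. Array weights gave 1804 and 1674, the replicate block 498 and 400, and leaving out 1 library 416 to 1811 and 356 to 1694, the highest without alone library 1 and the lowest without co-culture library 1. For the pathway lists, 4 higher and 4 lower became 17 and 12 with array weights and 3 and 3 with the replicate block. Leaving out 1 library gave 2 to 16 higher and 2 to 14 lower, the most without alone library 1 (16 and 14) and the fewest, 2 and 2, without co-culture library 1 or 3. There were also 2 higher when alone library 3 or 4, or co-culture 2 or 4, was left out. The cause of these shifts was not tested.

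Differences near 0 turned sign. Calm3 was -0.00040 with array weights and -0.016 to 0.047 when 1 library was left out, below 0 for alone library 1. Creb1 was -0.067 to 0.019 when 1 library was left out, above 0 for alone library 2 or 4 (0.018 for the second). Of 305 values of named genes under the alternatives, over 18 genes, 261 kept their direction and their side of the threshold. The labels do not say whether libraries of the same number were paired. Same-numbered libraries had correlations of -0.026, 0.18, 0.12 and -0.26 between their deviations from the group means. Of the 8 libraries, 2 correlated best with their own number. With so few libraries these values cannot show whether the numbers mark pairs. Counting error limits what can be said of Camk2b, Camk4 and Camk1g.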
